A study of Mus musculus with 4 samples.

Results

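The mitosis and spindle genes described here are 40 genes whose products drive entry into mitosis, build the kinetochore and the spindle, and divide the cell. They were chosen by symbol, and all 40 were found among the 54532 gene IDs of the count table. RNA was sequenced from primary mouse embryonic fibroblasts (MEFs), cultures of mixed mesenchymal cells from dissociated embryos, with 1 library for each of 4 genotypes. These were Trp53-/-; Zfp871-/- (called double null here), Trp53-/-, Zfp871-/- and wild type (WT). Per the labels, all cells were C57BL/6, came from mid-gestation embryos and were dividing exponentially at passage 4. Mice heterozygous for both genes were intercrossed for the double-null and Trp53-/- cells, and Zfp871 heterozygotes were intercrossed for the Zfp871-/- cells. Either cross can give WT embryos, and the sources used here do not say which gave the sequenced WT cells, whether embryos were pooled or how the alleles were made. Litter and cross therefore cannot be told apart from genotype.

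A dividing cell switches its mitotic genes on late in the cycle. Cyclin-dependent kinase 1 with its cyclins starts mitosis, the kinetochore couples chromosomes to the spindle, the checkpoint holds the cell until every chromosome is attached, and the anaphase-promoting complex then releases it. In resting cells, and after p53 is activated, these genes are repressed through the DREAM complex, which binds a short promoter element called CHR, while NF-Y binds CCAAT boxes in the same promoters. p53 acts there mainly through Cdkn1a, whose product p21 inhibits cyclin-dependent kinases.

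Promoters of 6 members are printed because CHR and CCAAT elements were common in the set. Each line gives the 150 bases before the RefSeq start site (GRCm38.p6), 5′ to 3′ on the strand of the gene, and capitals mark matches on either strand to the CHR letters TTTGAA, to the box that reads CCAAT or to the E2F cores spelled out further on. Sgo1 and Spc25 had the highest and the lowest fitted change with Trp53 loss among the 33 members with a RefSeq window. The other 4 had the highest fitted change among members with a CHR in these 150 bases.
Sgo1, chr17:53689316-53689465, minus strand: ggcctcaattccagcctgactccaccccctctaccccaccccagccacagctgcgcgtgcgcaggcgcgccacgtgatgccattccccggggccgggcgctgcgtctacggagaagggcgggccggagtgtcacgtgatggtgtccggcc
Spc25, chr2:69206214-69206363, minus strand: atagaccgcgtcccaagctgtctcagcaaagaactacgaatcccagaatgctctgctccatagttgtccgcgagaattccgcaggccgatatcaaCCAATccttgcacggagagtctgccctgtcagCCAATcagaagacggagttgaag
Cdk1, chr10:69352913-69353062, minus strand: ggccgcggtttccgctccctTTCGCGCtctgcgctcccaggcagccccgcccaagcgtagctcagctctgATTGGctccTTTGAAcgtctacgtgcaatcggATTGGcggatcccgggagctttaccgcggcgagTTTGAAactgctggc
Kif11, chr19:37376232-37376381, plus strand: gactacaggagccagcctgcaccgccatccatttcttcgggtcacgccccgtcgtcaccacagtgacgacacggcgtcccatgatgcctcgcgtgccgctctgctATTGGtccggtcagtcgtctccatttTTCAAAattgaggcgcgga
Ncapg, chr5:45669775-45669924, plus strand: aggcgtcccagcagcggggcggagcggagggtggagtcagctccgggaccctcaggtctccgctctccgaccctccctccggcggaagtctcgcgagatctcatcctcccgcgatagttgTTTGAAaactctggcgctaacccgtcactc
Ect2, chr3:27153879-27154028, minus strand: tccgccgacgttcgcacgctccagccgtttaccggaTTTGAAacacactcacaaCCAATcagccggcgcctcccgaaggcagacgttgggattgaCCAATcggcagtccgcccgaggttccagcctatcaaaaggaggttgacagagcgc
In Sgo1 and Spc25 the element lay after the start site, and it is shown with 9 bases on either side, in capitals. Spc25 has CHR itself and Sgo1 a variant, TTCGAA.
Sgo1, chr17:53689274-53689297, minus strand: acgcagaatTTCGAAtgtggcggc
Spc25, chr2:69206175-69206198, minus strand: ggtggagagTTTGAAattgaaaga
Cdk1 held a pair of CHR matches, a pair of CCAAT boxes that read ATTGG on the strand shown, and 1 E2F core in its printed stretch. Kif11 held 1 CCAAT box and, closer to the start, a CHR, both on the strand opposite to the one shown. Spc25 held a pair of CCAAT boxes before the start, 32 bases apart, and its CHR at positions 24 to 29, counted from 0 at the start site. The printed stretch of Sgo1 held no match.

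Of the 33 members with a promoter window, 25 (75.8%) held CHR. Windows run from 250 bases before to 50 bases after the RefSeq start, and both strands were searched. Ect2 and Prc1 have 2 overlapping windows each, so the 33 members have 35 windows. The same letters stood in 14.2% of 10067 tested genes with a window and in 17.9% of all 32851 windows. Of the 8 members without CHR, Bub1 and Sgo1 held the variant, which left Ccnb1, Birc5, Cenpe, Nuf2, Mad2l1 and Nusap1 with neither form in the window. In 24 of the 33 members (72.7%) a CHR lay within 50 bases of the start site, against 4.01% of tested genes, a distance chosen after the positions were seen. CCAAT was found in 25 members (75.8%) and in 43% of tested genes. CHR or its variant stood together with CCAAT in 23 members (69.7%) and in 8.12% of tested genes. The E2F core, spelled TTGGCGC or TTCCCGC or TTCGCGC or TTGCCGC, was found in 4 members (12.1%), Cdk1, Ccnb1, Ncapg and Ect2, and in 19.3% of tested genes and 9.57% of all windows. The forkhead sequence TGTTTAC was found in 3 members, Knl1, Nuf2 and Ect2, and in 3.08% of tested genes. In 3 places a match of one motif overlapped a match of another. In Ccnb1 and in Ect2 the only E2F core overlapped a CCAAT box, so these matches are not separate elements. In Cdca8 the CHR shared a base with a CCAAT box.

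**Figure D1:**
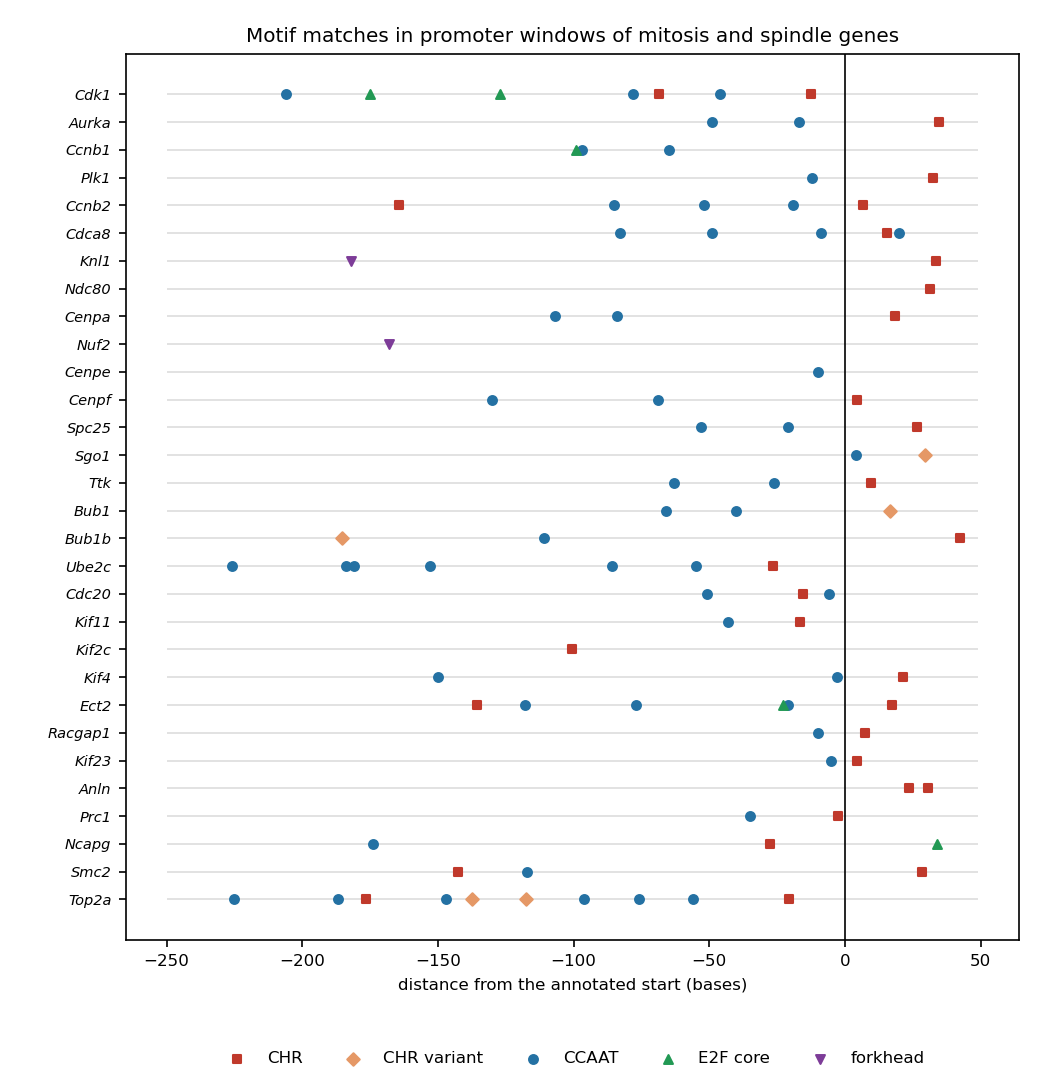
Positions of motif matches in the promoter windows of the 30 members with at least 1 match, 1 window per member, with the distance from the annotated start in bases on the x axis. CHR matches gather close to the start, and 24 of 33 members hold one within 50 bases.

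Members with and without CHR had similar fitted changes with Trp53 loss. The median was 0.97 on the log2 scale in the 25 members with CHR and 0.99 in the 8 without it. With the variant counted as well, it was 0.98 in the 27 members with either form and 0.93 in those with neither. A match of letters describes the sequence and does not show that a protein binds there. No promoter was read for Ccna2, Incenp, Smc4, Aurkb, Kif20a, Tpx2 and Foxm1.

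The libraries held 22324599 counts in the double null, 21004078 in Trp53-/-, 19974054 in Zfp871-/- and 19303167 in WT, and every member had between 214 and 10026 counts per library. Trp53 had 59.6 normalized CPM (counts per library total after TMM scaling) in the double null, 56.5 in Trp53-/-, 128.3 in Zfp871-/- and 126.5 in WT, and Zfp871 had 13.2, 35.9, 17.4 and 35 CPM in the same order of libraries, so each gene was lower in the libraries labelled null for it. All 11 fibroblast markers, such as Col1a1 and Vim, were present, and they summed to between 33424 and 45876 CPM. Single fibroblast markers also differed, with log2 ratios from -2.69 to 1.71 in Trp53-/- against WT and from -1.87 to 1.32 in Zfp871-/- against WT. Markers of other cells differed between libraries as well. The 15 macrophage markers summed to 974.5 CPM in the double null, 1090 in Trp53-/-, 89.4 in Zfp871-/- and 78.2 in WT, with no marker at 0. The 7 chondrocyte markers summed to 44.7 CPM in the double null, 37.1 in Trp53-/-, 81.4 in Zfp871-/- and 772.7 in WT. Epithelial, endothelial, erythroid and skeletal muscle markers each summed to at most 25.9 CPM in every library, and neural markers to between 97.7 and 170.3 CPM. Xist had 9152 to 14475 counts per library. Of the Y-linked genes, Kdm5d, Uty and Eif2s3y had 0 counts in every library and Ddx3y at most 1.

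All 40 members were lowest in WT and stood higher in both Trp53-null libraries than in both others. Their summed level was 4393 CPM in the double null, 4053 in Trp53-/-, 2787 in Zfp871-/- and 1896 in WT, which is 2.32, 2.14 and 1.47 times the WT sum in the 3 mutants. In 37 of 40 members the order from high to low was double null, Trp53-/-, Zfp871-/-, WT, and Aurkb, Kif4 and Nusap1 were instead highest in Trp53-/-. Of the 13306 genes tested, 32.4% were lowest in WT and 32.7% had both Trp53-null libraries above the others. In these bulk cultures, more dividing cells and more RNA per dividing cell cannot be told apart.

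**Figure D2:**
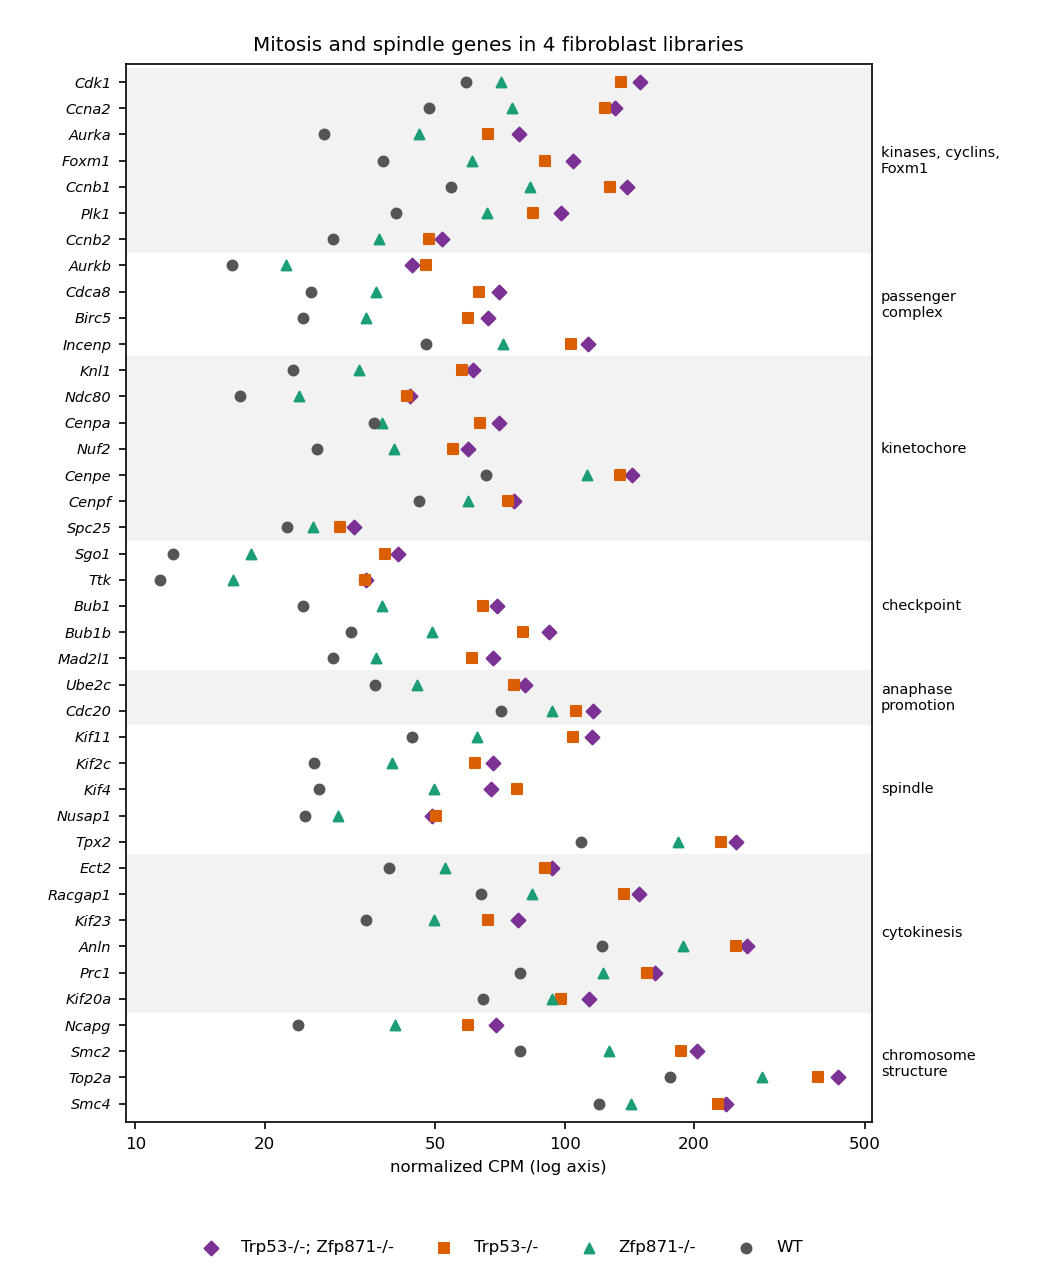
Normalized CPM of each member (log axis) in the double null, Trp53-/-, Zfp871-/- and WT, 1 library each, grouped by role. WT is the lowest point in all 40 rows, and the Trp53-null points lie furthest right.

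Per length, most members were expressed above the typical gene. On the scale of the deposited files, taken for FPKM, the mean over the 4 libraries ran from 4.12 for Cenpf to 51.6 for Cdc20. The median was 13.3 over the members against 5.78 over all genes tested. After Cdc20, the highest mean FPKM belonged to Tpx2 (41.3), Top2a (35.5), Smc4 (34.8) and Plk1 (32.7). After Cenpf, the lowest belonged to Ttk (4.9), Ndc80 (4.91) and Knl1 (5.1).

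Mitosis and spindle genes rose with Trp53 loss. The edgeR quasi-likelihood test takes the libraries that share an allele as its replicates. In it, 27 of the 40 members passed a Benjamini-Hochberg adjusted p of 0.05 upward and 0 downward, where 5.01% of all genes rose and 4.31% fell. The members that rose included Cdk1, the kinase that starts mitosis, Sgo1, which protects cohesion at the centromere, and Aurkb, the kinase of the chromosomal passenger complex. The 13 that did not pass were Ccnb2, Plk1, Cenpe, Cenpf, Nuf2, Spc25, Cdc20, Kif4, Tpx2, Prc1, Kif20a, Anln and Top2a, each with a positive fitted change. An unadjusted p under 0.05 was met by all 40 members and by 31% of all genes. Over 8 alternative scalings, filters, tools and models, between 19 and 36 members rose and 0 fell.

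In single pairs of libraries, which have no replicate and no test, all 40 members were higher in Trp53-/- than in WT, with log2 ratios from 0.41 to 1.64 and a median of 1.17. The median of all genes was 0.00, and 50.1% of them lay above 0. In that pair 31 members were at least 2-fold higher, against 8.9% of all genes. In the double null against Zfp871-/- all 40 were again higher, with log2 ratios from 0.29 to 1.14 and a median of 0.77, where 50.2% of all genes lay above 0. There Sgo1, Cdk1 and Ttk, 3 members, were at least 2-fold higher, against 5.51% of all genes. Scaled by total counts, which moved the median of all genes in this pair by 0.14, 12 members were at least 2-fold higher. The 95% counting interval lay above 0 for all 40 members in both pairs, against 32.5% of all genes in the double null over Zfp871-/- and 34.3% in Trp53-/- over WT. All 15 macrophage markers were higher in the same pairs, with median log2 ratios of 3.54 without Zfp871 and 4.09 with it, and their part in the result was not tested.

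**Figure D3:**
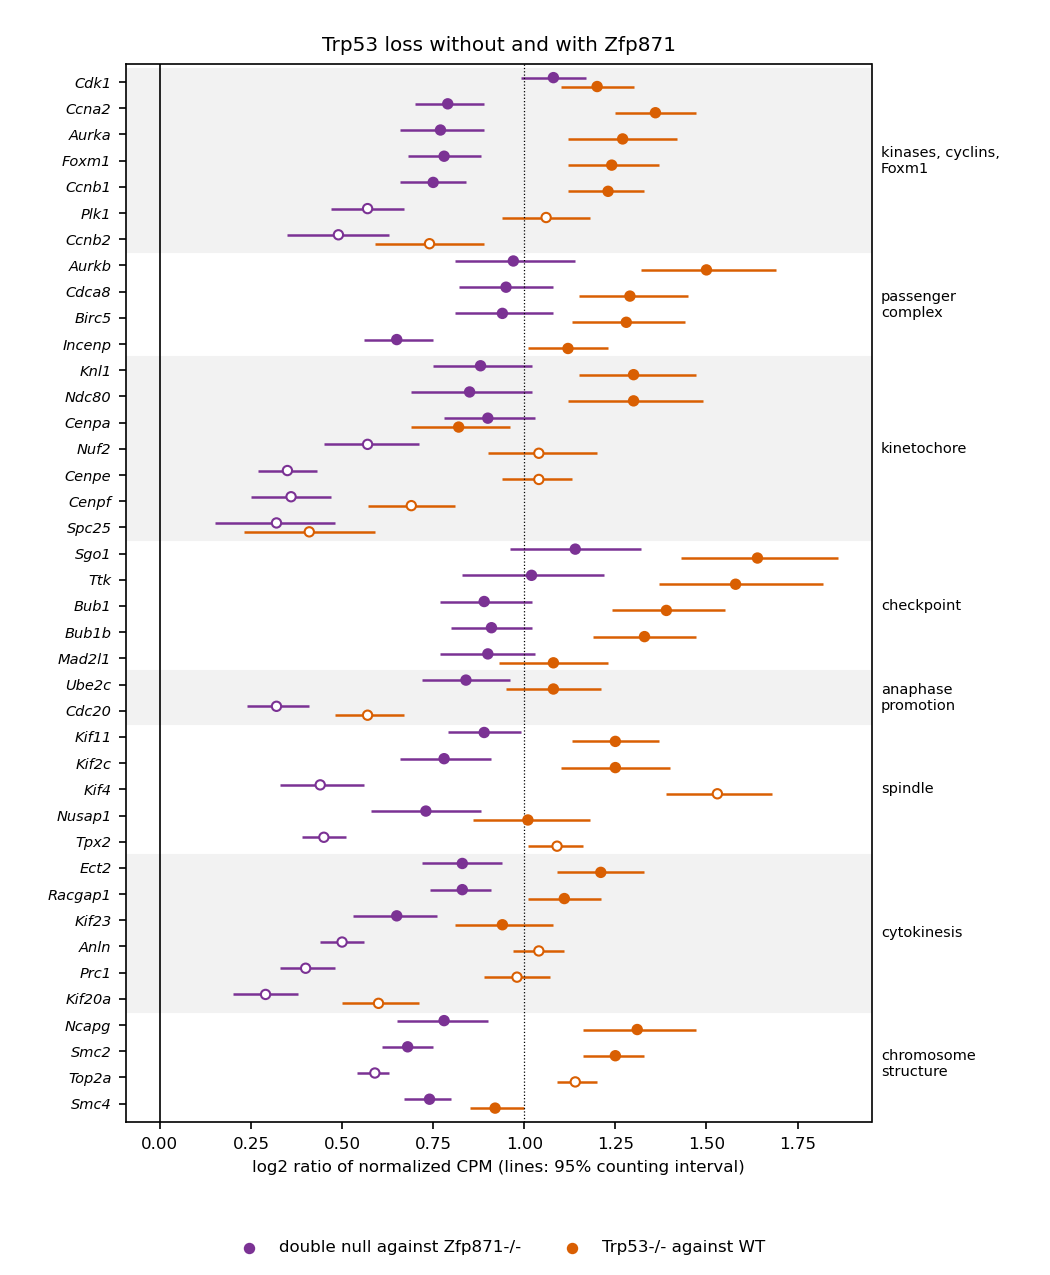
Log2 ratios of each member in the double null against Zfp871-/- and in Trp53-/- against WT, with lines for 95% counting intervals and a dotted line at 2-fold. Filled points mark the 27 members that passed the edgeR test for Trp53 loss, and the ratio to WT is the larger one in 39 of 40 members.

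Among the kinases, cyclins and Foxm1, 5 of 7 rose with Trp53 loss. In a model of the Trp53 allele alone, Ccnb1, Aurka and Foxm1 lost the call. Cdk1 had 150.1 CPM in the double null, 135.1 in Trp53-/-, 71.1 in Zfp871-/- and 58.8 in WT. The Trp53-null libraries thus lay close to each other and well above the other pair. Its fitted change of 1.14 (SE 0.106, edgeR, Benjamini-Hochberg adjusted p 0.0196) was the highest of this group. Aurka, the kinase that matures spindle poles, had 78.3, 66.3, 45.7 and 27.5 CPM in the same order of libraries, with Zfp871-/- between WT and the Trp53-null cells. It rose by 1.02 (SE 0.161, edgeR, Benjamini-Hochberg adjusted p 0.0389) and had the largest ratio of Zfp871-/- to WT of the group, 0.73 (95% counting interval 0.57 to 0.89). Ccna2 and Ccnb1, cyclins that partner Cdk1, rose by 1.07 and 0.99, and Foxm1, a transcription factor for late cell-cycle genes, rose by 1.01. Plk1, which acts from mitotic entry to exit and had the highest mean FPKM of the group, had 98.1, 84.3, 66 and 40.4 CPM in the same order of libraries. Its fitted change of 0.81 (SE 0.156, edgeR, Benjamini-Hochberg adjusted p 0.0523) did not pass, but Plk1 was called under 5 of the 9 settings run. Ccnb2, another B-type cyclin, had 51.8, 48.2, 36.9 and 28.8 CPM in the same order of libraries, and its fitted change of 0.62 (SE 0.131), the smallest of the group, did not pass either.

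All 4 genes of the chromosomal passenger complex, which corrects faulty attachments and later acts in cytokinesis, rose. Aurkb, its kinase, had 44.1 CPM in the double null, 47.6 in Trp53-/-, 22.4 in Zfp871-/- and 16.8 in WT, and rose by 1.24 (SE 0.181, edgeR, Benjamini-Hochberg adjusted p 0.035). Aurkb lies at chr11:69045647-69051664 (GRCm38), 528695 bases from Trp53, and the part that sequence linked to the null allele has in its value was not tested. Cdca8 (borealin) and Birc5 (survivin), which bring the complex to the centromere, rose by 1.12 and 1.11. Incenp, the scaffold, had the highest mean FPKM of the complex and the smallest change, with 113.1, 103.2, 71.8 and 47.6 CPM in the same order of libraries, and rose by 0.88 (SE 0.151). The call of Incenp was lost in the model of the Trp53 allele alone and with a filter of 5 CPM. Incenp also had the largest ratio of Zfp871-/- to WT of the complex, 0.59 (95% counting interval 0.47 to 0.72).

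All 7 kinetochore genes were higher with Trp53 loss in both pairs of libraries, and 3 of 7 passed the test. Knl1, the scaffold that recruits checkpoint proteins, had 61.1 CPM in the double null, 57.6 in Trp53-/-, 33.1 in Zfp871-/- and 23.3 in WT, and rose by 1.09 (SE 0.154, edgeR, Benjamini-Hochberg adjusted p 0.0336). Ndc80, a subunit of the main microtubule coupler, rose by 1.08. Cenpa, the histone variant that marks the centromere, had 70.2, 63.4, 37.5 and 35.9 CPM in the same order of libraries and rose by 0.86 (SE 0.11). Its level hardly differed between Zfp871-/- and WT, at a ratio of 0.06 (95% counting interval -0.09 to 0.22), and among the 40 members it alone had an interval that reached below 0 in that pair. Cenpe, a kinesin that carries chromosomes to the spindle equator and had the highest mean FPKM of the group, had 143.8, 134.8, 112.5 and 65.7 CPM in the same order of libraries. Its ratio of Zfp871-/- to WT was 0.77 (95% counting interval 0.67 to 0.88), and its fitted change with Trp53 loss of 0.69 (SE 0.195, edgeR, Benjamini-Hochberg adjusted p 0.102) did not pass. Cenpf, which binds the outer kinetochore, had a fitted change of 0.52. Spc25 had 32.3, 30, 25.9 and 22.6 CPM in the same order of libraries, and its fitted change of 0.36 (SE 0.132) was the smallest of all members. Ndc80, Nuf2 and Spc25, which belong to the same complex, thus had fitted changes of 1.08, 0.81 and 0.36.

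The checkpoint and cohesion-guarding genes all rose, 5 of 5. Sgo1 had 41 CPM in the double null, 38.2 in Trp53-/-, 18.6 in Zfp871-/- and 12.2 in WT. Its fitted change of 1.39 (SE 0.182, edgeR, Benjamini-Hochberg adjusted p 0.0297) was the highest of the 40 members, and its log2 ratios with Trp53 loss were 1.14 without Zfp871 and 1.64 with it. Ttk, the kinase that starts checkpoint signalling, had 34.4, 34.2, 16.9 and 11.4 CPM in the same order of libraries and rose by 1.30. Bub1 and Bub1b, which act at unattached kinetochores, rose by 1.14 and 1.12. Bub1b had the highest mean FPKM of the group, with 92.1, 79.9, 49.1 and 31.8 CPM in the same order of libraries, and the largest ratio of Zfp871-/- to WT, 0.62 (95% counting interval 0.48 to 0.78). Mad2l1, which inhibits Cdc20, had 67.9, 60.9, 36.4 and 28.8 CPM in the same order of libraries and rose by 0.99 (SE 0.118), the smallest change of the group.

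The pair of genes that act with the anaphase-promoting complex were called differently. Ube2c, its ubiquitin-conjugating enzyme, had 80.8 CPM in the double null, 76.2 in Trp53-/-, 45.2 in Zfp871-/- and 36.1 in WT, and rose by 0.96 (SE 0.12, edgeR, Benjamini-Hochberg adjusted p 0.0277). Cdc20, its activator and the member with the highest FPKM, had 116.7, 106.0, 93.2 and 71.2 CPM in the same order of libraries. Its fitted change of 0.45 (SE 0.117, edgeR, Benjamini-Hochberg adjusted p 0.0897) did not pass.

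Of the 5 spindle genes, 3 rose. Kif11, the motor that pushes spindle poles apart, had 116.0 CPM in the double null, 104.8 in Trp53-/-, 62.6 in Zfp871-/- and 44.1 in WT, and rose by 1.07 (SE 0.134, edgeR, Benjamini-Hochberg adjusted p 0.0277). Kif2c, which removes tubulin at faulty attachments, rose by 1.01, a call lost in the model of the Trp53 allele alone, and Nusap1, which binds spindle microtubules, by 0.87. Tpx2, which activates Aurka on the spindle, had 250.8, 231.6, 184.0 and 109.1 CPM in the same order of libraries, and its fitted change of 0.77 (SE 0.188) did not pass. Kif4, an X-linked motor of chromosome arms and midzone, had 67.5, 77.5, 49.6 and 26.8 CPM in the same order of libraries. This gene had both the largest ratio of Zfp871-/- to WT among the members, 0.89 (95% counting interval 0.73 to 1.05), and the lowest ratio of the double null to Trp53-/-, -0.20 (-0.30 to -0.10). Its fitted change with Trp53 loss of 0.98 had the largest SE of the members, 0.289, and did not pass. Kif4 shares 15.1% of its exon bases with Pdzd11 on the opposite strand.

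In cytokinesis, 3 of 6 genes rose. Ect2, the exchange factor that turns on the contractile ring, had 93.5 CPM in the double null, 90.2 in Trp53-/-, 52.6 in Zfp871-/- and 39 in WT, and rose by 1.02 (SE 0.138, edgeR, Benjamini-Hochberg adjusted p 0.0312). Racgap1 and Kif23, which form the centralspindlin complex, rose by 0.97 and 0.79, and Kif23 lost the call in the model of the Trp53 allele alone. Prc1, which bundles midzone microtubules, had 162.3, 155.1, 122.7 and 78.5 CPM in the same order of libraries. Its fitted change of 0.69 did not pass, and its ratio of Zfp871-/- to WT was the largest of the group, 0.65 (95% counting interval 0.55 to 0.74). Anln, a scaffold of the contractile ring, had a fitted change of 0.77 and did not pass either. Kif20a, a midzone motor, had 114.2, 98, 93.5 and 64.4 CPM in the same order of libraries, with Trp53-/- and Zfp871-/- side by side, and a fitted change of 0.45 (SE 0.125) that did not pass. Kif20a shares 29.3% of its exon bases with Cdc23 on the opposite strand, the largest such share among the members. The strand setting is not stated, so reads of the 12 members that share exon bases with another gene cannot be fully assigned.

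Genes of chromosome structure rose in 3 of 4 cases. Smc2 and Ncapg lost the call in the model of the Trp53 allele alone and with a filter of 5 CPM, which leaves 1 of 4 in either setting. Ncapg, a subunit of condensin, had 69.1 CPM in the double null, 59.5 in Trp53-/-, 40.3 in Zfp871-/- and 23.9 in WT. It rose by 1.04 (SE 0.171, edgeR, Benjamini-Hochberg adjusted p 0.0411) and had the largest ratio of Zfp871-/- to WT of the group, 0.75 (95% counting interval 0.58 to 0.92). The core condensin subunits Smc2 and Smc4 rose by 0.96 and 0.83, and their ratios of Zfp871-/- to WT were 0.69 and 0.25. Smc4 had 238.1, 228.0, 142.9 and 120.2 CPM in the same order of libraries, and its change of 0.83 (SE 0.114, edgeR, Benjamini-Hochberg adjusted p 0.0322) was the smallest of the group. Top2a, which untangles sister DNA and has the most counts of all members, had 432.3, 389.2, 288.0 and 176.1 CPM in the same order of libraries. Its fitted change of 0.86 (SE 0.173, edgeR, Benjamini-Hochberg adjusted p 0.0571) did not pass, but Top2a was called under 4 of the 9 settings run.

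With Zfp871 loss, members were higher where Trp53 was intact and differed little where it was lost. All 40 were higher in Zfp871-/- than in WT, with log2 ratios from 0.06 to 0.89 and a median of 0.55, where 49.5% of all genes lay above 0. The highest ratios were those of Kif4 (0.89), Cenpe (0.77), Tpx2 (0.75), Ncapg (0.75) and Aurka (0.73), and the lowest those of Cenpa (0.06), Spc25 (0.19), Nusap1 (0.25) and Smc4 (0.25). None reached 2-fold, which 3.52% of all genes did upward. The 95% counting interval lay above 0 for 39 members, against 27.7% of all genes. In the double null against Trp53-/-, 37 members were above 0 (50.9% of all genes), with log2 ratios from -0.20 to 0.24 and a median of 0.12. The highest there were Aurka (0.24), Kif23 (0.23), Plk1 (0.22), Foxm1 (0.22), Kif20a (0.22) and Ncapg (0.22). No member reached 2-fold (0.819% of all genes), and the counting interval lay above 0 for 27 members (19% of all genes) and below 0 for Kif4. Macrophage markers summed to 89.4 CPM in Zfp871-/- and 78.2 in WT, close to each other, while chondrocyte markers summed to 81.4 CPM in Zfp871-/- and 772.7 in WT. The part of the chondrocyte markers in the result was not tested.

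No member passed the edgeR quasi-likelihood test for Zfp871 loss over both backgrounds, where 0% of all genes rose and 0% fell, and the smallest Benjamini-Hochberg adjusted p of a member was 0.874. Plk1, Aurka, Foxm1, Bub1b, Kif20a, Kif23 and Ncapg, 7 members, had an unadjusted p under 0.05, as did 3.83% of all genes. DESeq2 and limma-voom called 0 members as well. In the edgeR test Zfp871 itself had a log2 coefficient of Zfp871 loss of -1.23 and did not pass (Benjamini-Hochberg adjusted p 0.874). As the test did not call the targeted gene, it cannot show that Zfp871 loss left the members unchanged. The additive test counts any difference between the backgrounds as error.

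**Figure D4:**
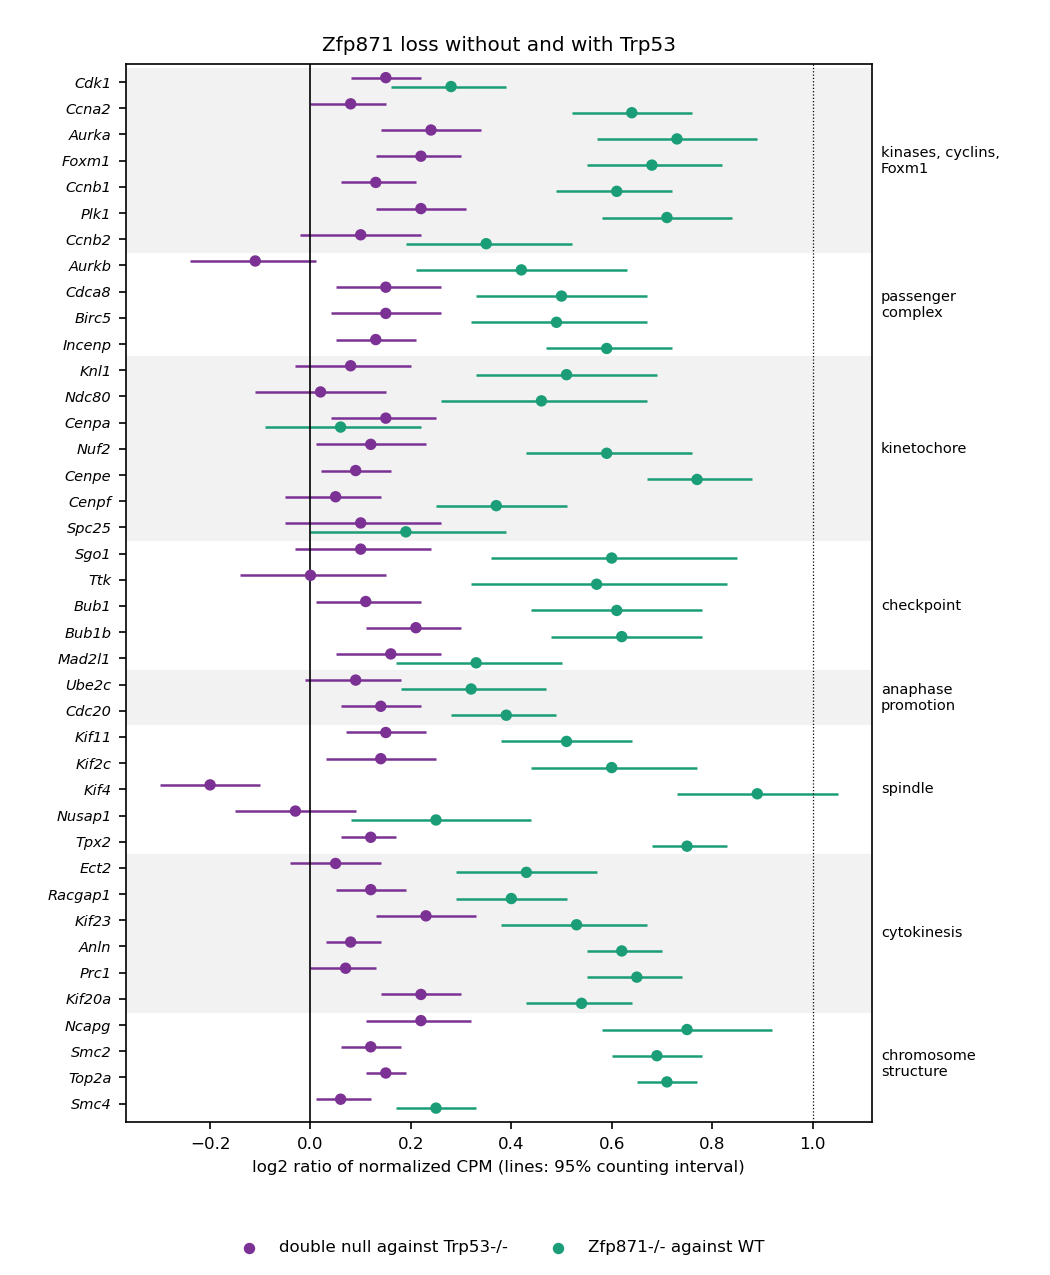
Log2 ratios of each member in the double null against Trp53-/- and in Zfp871-/- against WT, with lines for 95% counting intervals. The ratios to WT lie between 0.06 and 0.89 and those to Trp53-/- between -0.20 and 0.24, and none reaches 2-fold.

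The ratio with Trp53 loss was smaller without Zfp871 than with it in 39 of 40 members. The difference, taken as the double null over Zfp871-/- minus Trp53-/- over WT, had a median of -0.45 and ran from -1.09 for Kif4 to 0.09 for Cenpa. Over all genes its median was 0.00, and 49.8% of genes lay below 0. The members with the most negative difference were Kif4 (-1.09), Cenpe (-0.68), Tpx2 (-0.64), Prc1 (-0.58) and Smc2 (-0.57), and those at the other end were Cenpa (0.09), Spc25 (-0.09), Cdk1 (-0.12), Mad2l1 (-0.18) and Smc4 (-0.19). The 95% counting intervals of both ratios did not overlap for 33 of the 40 members, which held for 33.3% of all genes. With 1 library for each genotype this difference could not be tested. All members were read from the same 4 libraries, so their tallies are not independent observations. The single WT library was the lowest for all 40 members, and its part in the difference was not tested. The difference rests on the same 4 libraries as the Zfp871 ratios, so it is also the amount by which those were smaller without Trp53.

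Other mitotic genes also rose with Trp53 loss, but unevenly. Of 126 further genes in 5 lists, 47 rose and 2 fell, where 5.01% of all genes rose and 4.31% fell. The median fitted change of the 126 was 0.82 against 0.98 in the members. In the list of entry kinases 9 of 15 rose (median 1.07), and among other kinetochore genes 14 of 30 rose (median 1.01). Other spindle genes had 15 of 40 up and 2 down (median 0.83), other chromosome genes 5 of 19 up (median 0.52), and other checkpoint and anaphase-promoting genes 4 of 22 up (median 0.18). Anapc2, a core subunit of the anaphase-promoting complex, had the lowest fitted change of its list, -0.21, with 117.5 CPM in the double null, 115.5 in Trp53-/-, 131.0 in Zfp871-/- and 139.0 in WT. Trip13, which remodels checkpoint proteins, had the highest there, with 51.7, 45, 19.6 and 12.6 CPM in the same order of libraries, and rose by 1.62. The cohesin loader Nipbl (-0.04), the kinetochore gene Cenpt (-0.05) and the phosphatase regulator Ensa (-0.05) had the lowest fitted changes of their lists. Ncapg2 of condensin II and Cenpu of the inner kinetochore had the highest of theirs and rose by 1.42 and 1.70. Pkmyt1, an inhibitory kinase of Cdk1, and Haus5 of the augmin complex had the highest of theirs, 1.42 and 1.53, and did not pass.

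The other mitotic genes that fell were Psrc1 and Ckap2, both of which encode proteins of spindle microtubules. Psrc1, known in the mouse as a p53-inducible gene, had 5.39 CPM in the double null, 4.31 in Trp53-/-, 82.3 in Zfp871-/- and 114.6 in WT. It fell by 4.32 on the log2 scale (SE 0.244, edgeR, Benjamini-Hochberg adjusted p 0.00991). Ckap2 had 47.2, 44.5, 87.2 and 74.1 CPM in the same order of libraries, and fell by 0.81 (SE 0.11, edgeR, Benjamini-Hochberg adjusted p 0.0312). For both, the Trp53-null libraries lay below the others, opposite to the 40 members.

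Genes of DNA replication, the step before mitosis, moved alongside. Of 42 replication genes 28 rose with Trp53 loss and none fell, where 5.01% of all genes rose and 4.31% fell. The median fitted change of the replication genes was 1.03. Their median log2 ratio was 0.84 in the double null over Zfp871-/- and 1.22 in Trp53-/- over WT, where the members had 0.77 and 1.17. It was 0.12 in the double null over Trp53-/- and 0.44 in Zfp871-/- over WT, where the members had 0.12 and 0.55. In Zfp871-/- over WT 38 of 42 replication genes were above 0. Cdc6, which loads the replicative helicase, had the highest fitted change, 2.02, with 44.3 CPM in the double null, 41 in Trp53-/-, 13.9 in Zfp871-/- and 7.91 in WT.

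**Figure D5:**
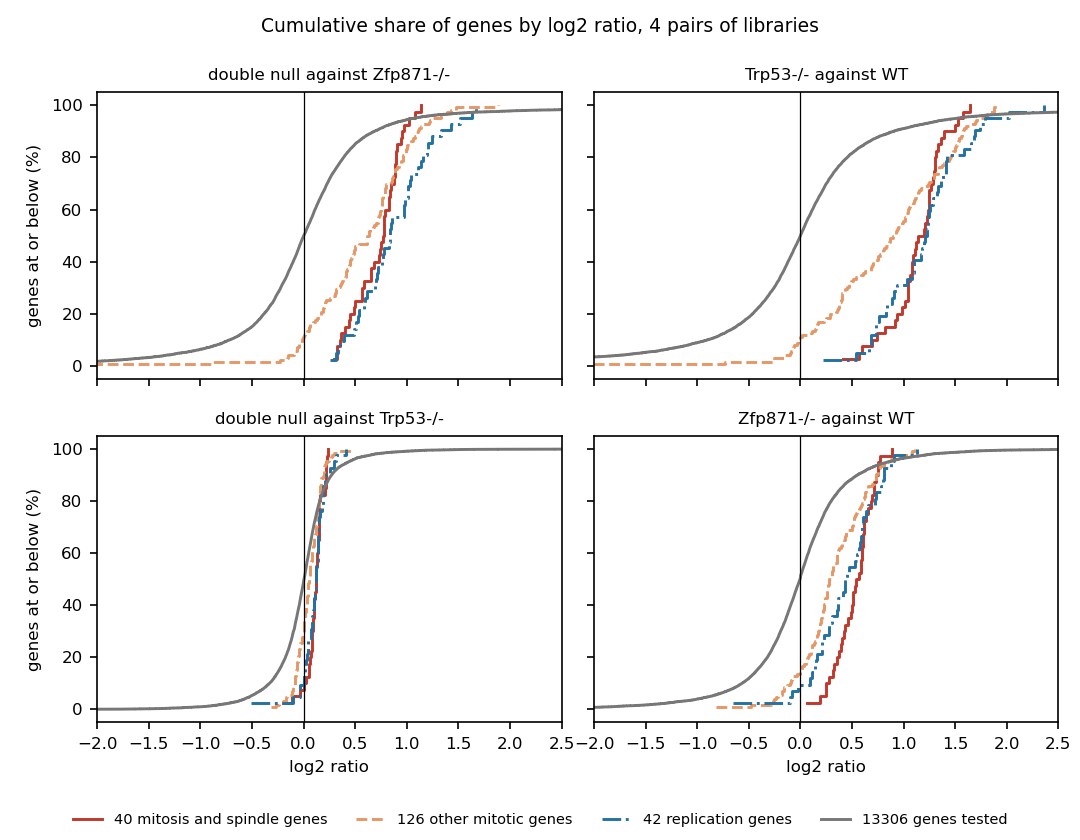
Cumulative share of genes (%) by log2 ratio in 4 pairs of libraries for the 40 members, 126 other mitotic genes, 42 replication genes and all 13306 genes tested. The members' curve lies wholly right of 0 in the double null against Zfp871-/-, Trp53-/- against WT and Zfp871-/- against WT, and close to 0 in the double null against Trp53-/-.

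Among 28 regulators of the mitotic program, 8 rose and 4 fell with Trp53 loss, Trp53 itself among those that fell. Over all genes, 5.01% rose and 4.31% fell. Cdkn1a had 14.7 CPM in the double null, 15.6 in Trp53-/-, 696.5 in Zfp871-/- and 742.0 in WT, and fell by 5.57 (SE 0.132, edgeR, Benjamini-Hochberg adjusted p 0.00539). Its log2 ratio of Zfp871-/- to WT was -0.09, where the members had a median of 0.55. The part of Cdkn1a in the levels of the members was not tested. Mybl2, which with the MuvB core activates late cell-cycle genes, had 55.9, 46.7, 18.9 and 11.6 CPM in the same order of libraries, and rose by 1.78 (SE 0.168, edgeR, Benjamini-Hochberg adjusted p 0.0196). Of the MuvB core, Lin9 and the CHR-binding Lin54 rose by 1.21 and 1.24, while Lin37 (0.06), Lin52 (0.37) and Rbbp4 (0.22) did not pass. E2f7 and E2f8, which repress E2F targets, rose by 1.36 and 1.17, and E2f1 and Rbl1 rose by 0.79 and 0.70. E2f2 had a log2 ratio of 2.59 in Trp53-/- against WT, on 0.902 CPM in WT, and did not pass. Cdkn2a, which encodes p16Ink4a and p19Arf, had 203.6, 167.4, 29.1 and 55.3 CPM in the same order of libraries, and rose by 2.20. Rb1, the retinoblastoma protein that restrains E2F, fell by 1.10, and Mybl1, a relative of Mybl2, fell by 0.99. The NF-Y subunits Nfya (0.53), Nfyb (-0.23) and Nfyc (0.24) did not pass.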

How the data were processed

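The authors deposited raw gene counts for 4 libraries, 1 per genotype. The submitters' processing notes list fastp, STAR and featureCounts and the build mm10, and the strand setting, the annotation and the tool versions are not stated there. The deposited normalized values carry no unit in their header. These deposited values were taken for FPKM. Between libraries their ratio to the count differed by 1 factor for all of 12115 genes (relative spread at most 2.4e-08). Any value scaled by gene length and by 1 factor per library would show this, so the exact unit is not settled. The deposited values served only to compare levels between genes. GENCODE M21 (GRCm38) named 54495 of 54532 IDs.

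Counts were scaled by TMM, and 13306 genes with a CPM of at least 1 in at least 2 libraries were kept, all 40 members among them. Log2 ratios of single pairs used a prior count of 2. Their 95% intervals are exact binomial intervals of both counts and hold counting error alone, as reads lacking molecular identifiers are not independent molecules. The test was the edgeR 4.0.16 (R 4.3.3) quasi-likelihood test of an additive model of both alleles, with 1 residual degree of freedom and Benjamini-Hochberg adjustment over all genes kept. Libraries that share an allele but differ in the other one serve as its replicates. The residual therefore holds any difference between the backgrounds, and the spread is moderated over all genes kept. The p-values of the test do not measure the spread between replicate cultures of a genotype, of which there were none. A fitted change is the log2 coefficient of Trp53 loss. DESeq2 1.42.0, limma-voom (limma 3.58.1) and other scalings, filters and models were run as alternatives.

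Members, lists and tests were chosen with earlier results of these data known. All members are named. Full values were given by rule for those with the highest and lowest fitted change, the largest Zfp871-/- to WT ratio and the highest mean FPKM of each role, and other members given in full were chosen after their values were seen. Motifs were searched as letters in RefSeq promoter windows, of which 33 members had one. In 26 of the 35 windows of members, bases 21 to 40 after the start lay in a GENCODE M21 transcript of the gene.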

Additional observations from a re-analysis of the deposited data

Results flagged for a closer look

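For 3 members the ratio with Zfp871 loss had opposite signs in the Trp53-null and the Trp53-intact pair, and this difference was not tested. Kif4 had a log2 ratio of -0.20 in the double null against Trp53-/- and of 0.89 in Zfp871-/- against WT, and its counting intervals excluded 0 in both pairs. Aurkb had -0.11 without Trp53 and 0.42 with it, and Nusap1 had -0.03 and 0.25. For Aurkb and Nusap1 the counting interval without Trp53 included 0 (-0.24 to 0.01 and -0.15 to 0.09).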

How the results depend on the processing

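No paired analysis was possible because each genotype has 1 library and the labels give no replicate numbers. For the same reason no replicate could be left out. Between 19 and 36 members rose with Trp53 loss and none fell over 8 alternatives, and 19 members were called under all 9 settings. The 19 came from the model with only the tested allele, where Ccnb1, Aurka, Foxm1, Incenp, Kif2c, Kif23, Smc2 and Ncapg had adjusted p between 0.0525 and 0.0747. Cenpf, Spc25, Cdc20 and Kif20a were called under none. The other members that did not pass in the main fit were called under some settings. Plk1 was called under 5 of 9, Top2a under 4, and Nuf2 and Anln under 3. Ccnb2, Cenpe, Kif4, Tpx2 and Prc1 were each called under 2. With a filter of 5 CPM, Incenp, Smc2 and Ncapg had adjusted p of 0.0525, 0.0577 and 0.0506. No fitted change of a member changed sign under these alternatives. Total counts in place of TMM moved the median of all genes by up to 0.14, in the double null against Zfp871-/-, where the member median became 0.92 and 12 members reached 2-fold instead of 3. With upper-quartile factors 36 members instead of 37 were above 0 in the double null against Trp53-/-. Over all genes, 1113 rose and 1191 fell with Trp53 loss without a filter on low counts, and 424 rose with a filter of 5 CPM, instead of 667 and 574. With Zfp871 loss, 2 genes rose and 4 fell without a filter and 3 and 5 by DESeq2, instead of 0 and 0. The causes were not tested. Each member had at least 214 counts per library, and the lack of replicate cultures limits every comparison.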
